A study of Mus musculus with 10 samples.

Results

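Smooth muscle contractile genes were followed across 10 arrays of colitic mouse colon. The set holds 35 listed genes, chosen by name for their part in the contraction of smooth muscle, and 34 of them had a named probe set among the 19505 named genes measured. The symbol without one was Kcnma1, the pore-forming subunit of the large-conductance potassium channel. Each of the 34 genes had a single probe set, and values are log2 intensities after robust multi-array averaging (RMA), the deposited scale.

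All mice were wildtype C57BL/6 animals that drank 3% dextran sulfate sodium (DSS), which injures the colonic epithelium, and received an anti-PD1 antibody by intraperitoneal injection, a model of colitis under immune checkpoint inhibition. In 5 samples, here called ECP, the mice had also been given donor cells treated by extracorporeal photopheresis, a procedure that exposes leukocytes outside the body to a photosensitising drug and UVA. The other 5 samples, here called control, had the colitis without donor cells. RNA came from complete colon tissue, so muscle, mucosa and attached tissue were measured together. Whether every array came from its own mouse is not said in the labels, so the p-values cover only the spread among these samples, which may be technical. No uninjured colon was compared here, so a change caused by the colitis itself cannot be read. In such tissue, fewer muscle cells and less RNA per muscle cell cannot be told apart.

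Smooth muscle forms the muscularis externa and the thin muscularis mucosae of the colon and moves its contents. Calcium that enters through channels or leaves internal stores activates myosin light chain kinase, and phosphorylated myosin then pulls on actin filaments held by dense bodies and intermediate filaments. Many of the genes involved are switched on together by serum response factor and its partner myocardin, which act through the CArG box, a short element with a pair of C at one end, a pair of G at the other and 6 A or T bases between.

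The sequences directly upstream of 4 members are shown because members that carry such boxes are found both among the genes that varied together on these arrays and among those that did not. Each run gives the 250 bases before the annotated start, 5′ to 3′, from RefSeq on build GRCm38.p6, with CArG boxes in capitals, counting also those in which 1 of the 6 central bases is not A or T.
Acta2, chr19:34255374-34255623, minus strand: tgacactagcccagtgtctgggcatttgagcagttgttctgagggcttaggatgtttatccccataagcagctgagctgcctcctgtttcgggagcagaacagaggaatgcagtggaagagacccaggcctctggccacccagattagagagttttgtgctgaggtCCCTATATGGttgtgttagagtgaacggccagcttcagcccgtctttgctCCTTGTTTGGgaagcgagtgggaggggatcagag
Myl9, chr2:156775214-156775463, plus strand: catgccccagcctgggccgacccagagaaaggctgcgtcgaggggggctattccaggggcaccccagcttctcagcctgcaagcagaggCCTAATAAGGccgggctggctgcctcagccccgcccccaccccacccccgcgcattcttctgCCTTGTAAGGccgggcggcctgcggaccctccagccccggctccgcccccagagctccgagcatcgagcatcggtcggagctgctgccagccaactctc
Synm, chr7:67759743-67759992, minus strand: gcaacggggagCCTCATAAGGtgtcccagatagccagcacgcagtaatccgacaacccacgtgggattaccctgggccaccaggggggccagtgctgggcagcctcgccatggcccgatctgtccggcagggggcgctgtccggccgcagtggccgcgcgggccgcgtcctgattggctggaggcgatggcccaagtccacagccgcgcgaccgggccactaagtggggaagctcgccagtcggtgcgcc
Ldb3, chr14:34588682-34588931, minus strand: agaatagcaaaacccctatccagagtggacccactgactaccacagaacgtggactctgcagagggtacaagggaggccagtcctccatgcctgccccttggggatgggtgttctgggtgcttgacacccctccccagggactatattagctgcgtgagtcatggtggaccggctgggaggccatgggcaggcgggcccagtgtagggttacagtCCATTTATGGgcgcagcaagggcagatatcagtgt

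The boxes of Acta2 begin 84 and 34 bases before the start, those of Myl9 161 and 99 bases, that of Synm 239 bases and that of Ldb3 35 bases. Ldb3 has another annotated start, and the same box begins 109 bases before it. Of 30 listed genes with an upstream window in the table, 2 held a box with no other base in its centre (Myl9 and Ldb3) and 7 held one when 1 other base was allowed, the others being Acta2, Synm, Jph2, Cacna1c and Pcp4. The definition of the box holds for both strands alike, although the letters of a given box can differ between them. Among all 27025 genes of the table, 1.62% held the first kind and 9.78% either kind. A match describes letters only, and boxes that lie farther upstream or in introns were not searched.

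The smooth muscle level of an array, the mean over the 34 genes, was 8.94, 9.04, 9.10, 9.02 and 8.77 in ECP replicates 1 to 5 and 8.41, 8.86, 9.04, 8.63 and 8.96 in control replicates 1 to 5. Control replicates 1 and 4 were the lowest arrays, ECP replicate 5 came next, and the other controls lay inside the ECP range. The ECP mean was 8.97 ± 0.13 (SD, n = 5). The control mean was 8.78 ± 0.26 (SD, n = 5), lower by 0.19 with SE 0.13. Without control replicates 1 and 4 the control mean was 8.95 ± 0.09 (SD, n = 3) and the difference 0.02 with SE 0.08. No test was run on this score, since its genes were chosen with results of these arrays known.

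Control replicates 1 and 4 also stood apart in transcripts of pancreatic acinar cells, which make digestive enzymes and are no part of the colon. Over 13 measured acinar genes the mean reached 9.89 in the first of these and 11.83 in the second, against 5.80 to 6.57 in the other controls and 5.63 to 5.84 in the ECP arrays. Of the 13, 1 lay below the array median on all arrays. The next highest was control replicate 5 at 6.57, in which the amylase gene Amy2a5 was at 8.68, against 4.51 to 5.57 in the ECP arrays. Because of the height of the first pair, the group differences below are given also without control replicates 1 and 4. The part of these transcripts in the muscle values was not tested.

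**Figure D1:**
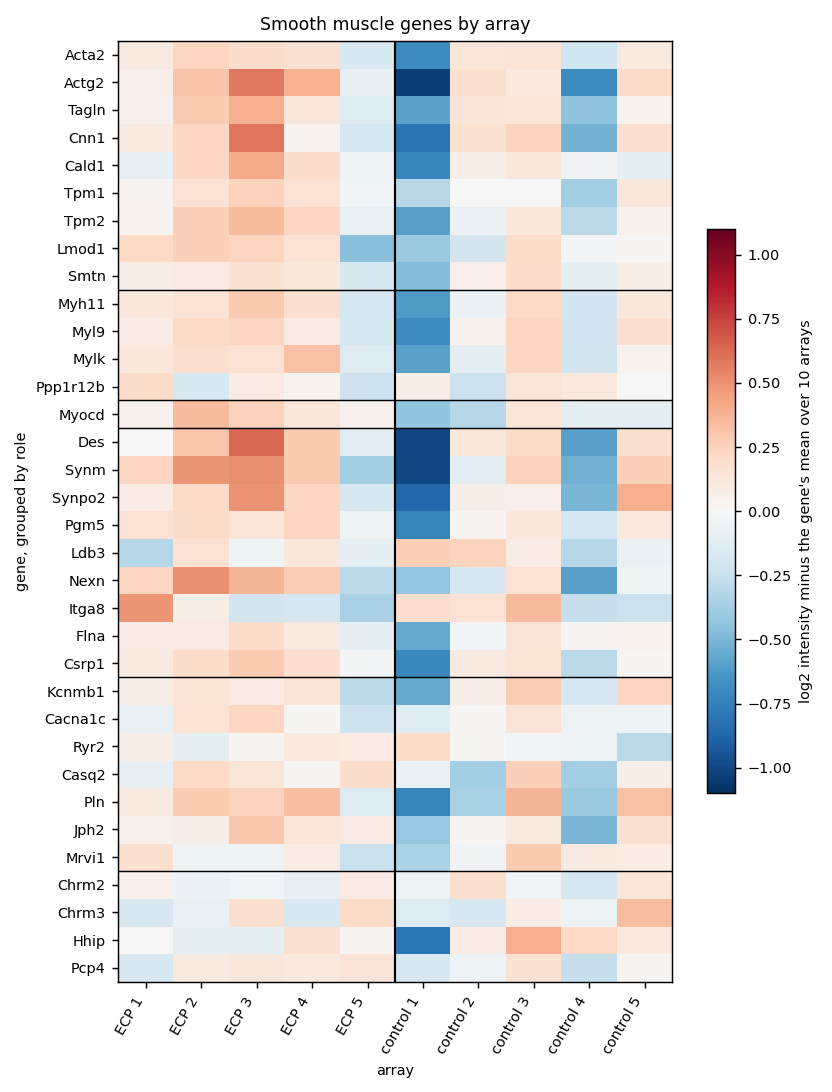
Colour gives the log2 intensity of each of 34 smooth muscle genes (rows, grouped by role from thin filament at the top to receptors at the bottom) on each array (columns) minus that gene's mean over the 10 arrays. Blue runs through most rows in control replicate 1 and control replicate 4, and 21 of 34 genes had their lowest value in control replicate 1.

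The thin filament genes code for the contractile actins and the proteins bound along them. All 9 had a higher mean in the ECP arrays, with a median difference of 0.27, and without control replicates 1 and 4 the median was 0.07 with 6 higher and 3 lower. Actg2, the gamma actin of enteric smooth muscle, was at 11.68, 11.93, 12.21, 12.01 and 11.53 in the ECP arrays and at 10.59, 11.80, 11.73, 10.92 and 11.84 in the control arrays. Its values in control replicates 1 and 4 lay below every ECP value, and the other 3 controls lay inside the ECP range. The difference of 0.49 (SE 0.24, limma adjusted p = 0.996) was the largest of any member and became 0.08 (SE 0.14) without those 2 controls.

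Cnn1, which codes for calponin, an actin-bound inhibitor of the myosin motor, was at 11.89, 12.02, 12.38, 11.83 and 11.60 in the ECP arrays and at 10.97, 11.95, 12.03, 11.27 and 11.96 in the control arrays. Its difference of 0.30 (SE 0.21, limma adjusted p = 0.998) turned to -0.04 (SE 0.14) without control replicates 1 and 4. Tagln, the gene of the actin cross-linking protein transgelin, was at 11.69, 11.91, 12.03, 11.77 and 11.49 in the ECP arrays and at 11.05, 11.78, 11.78, 11.20 and 11.68 in the control arrays. The same 2 controls were low in both genes, and the groups overlapped through the others. Tagln differed by 0.28 (SE 0.16, limma adjusted p = 0.998), or 0.04 (SE 0.11) without them.

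Acta2, the alpha actin shared by vascular and visceral smooth muscle, ran from 11.97 to 12.37 in the ECP arrays and was at 11.44 and 11.91 in control replicates 1 and 4, against 12.23 to 12.27 in the other controls. Its difference was 0.21 (SE 0.15), or -0.02 (SE 0.09) without the 2 low controls. Tpm2 and Tpm1, the tropomyosins that lie along the actin filament, differed by 0.32 (SE 0.13, unadjusted p = 0.036, adjusted p = 0.950, limma) and by 0.23 (SE 0.10, unadjusted p = 0.049, adjusted p = 0.978), and by 0.13 and 0.07 without control replicates 1 and 4. The remaining thin filament genes, Cald1 (caldesmon, which holds back myosin binding), Lmod1 (leiomodin, which starts actin filaments) and Smtn (smoothelin), differed by 0.27, 0.17 and 0.11, or by 0.11, 0.08 and -0.05 without those 2 controls. For Lmod1 the lowest array was ECP replicate 5 at 7.63, below control replicate 1 at 7.68.

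Among the myosin genes, Myh11, the smooth muscle myosin heavy chain and the most specific marker of this cell type, was at 10.60, 10.64, 10.77, 10.66 and 10.30 in the ECP arrays and at 9.86, 10.42, 10.70, 10.27 and 10.59 in the control arrays. ECP replicate 5 and control replicate 4 were nearly level, and control replicate 1 was lowest. The difference was 0.23 (SE 0.15, limma adjusted p = 0.998), or 0.02 (SE 0.11) without control replicates 1 and 4. Myl9, the regulatory light chain that is phosphorylated during contraction, was at 10.67, 10.81, 10.83, 10.68 and 10.42 in the ECP arrays and at 9.89, 10.64, 10.83, 10.38 and 10.77 in the control arrays. Its highest values lay in ECP replicate 3 and control replicate 3, and its difference of 0.18 (SE 0.16) turned to -0.07 (SE 0.10) without the 2 low controls.

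Mylk, the gene of the kinase that phosphorylates this light chain, was at 10.12, 10.18, 10.17, 10.33 and 9.86 in the ECP arrays and at 9.41, 9.90, 10.24, 9.81 and 10.05 in the control arrays. It was again lowest in control replicate 1, and differed by 0.25 (SE 0.14), or by 0.07 (SE 0.11) without control replicates 1 and 4. Ppp1r12b, a targeting subunit of the phosphatase that removes the phosphate, lay below the array median on every array, at 4.86 to 5.29 in the ECP arrays and 4.86 to 5.23 in the control arrays. It did not share the low value of control replicate 1, which was 5.16, and differed by -0.03 (SE 0.10), or 0.02 (SE 0.12) without the 2 controls.

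Myocd, which codes for the coactivator myocardin, had the smallest p of the 34 genes. It was at 6.00, 6.30, 6.21, 6.08 and 6.00 in the ECP arrays and at 5.52, 5.64, 6.09, 5.85 and 5.85 in the control arrays. All ECP values lay above 4 of the 5 controls, and control replicate 3 lay inside the ECP range. The difference of 0.33 (SE 0.11, unadjusted p = 0.010) did not pass the threshold of 0.05 after Benjamini-Hochberg adjustment over all genes (limma adjusted p = 0.731). Without control replicates 1 and 4 it was 0.26 (SE 0.11, unadjusted p = 0.041, limma adjusted p = 0.731). The probe set was dim, below the array median on every array.

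Of 9 genes of the cytoskeleton and of cell attachment, 7 had a higher mean in the ECP arrays and 2 a lower one, with a median difference of 0.30, or 0.05 with 6 higher and 3 lower without control replicates 1 and 4. Des, the gene of the intermediate filament protein desmin, was at 10.31, 10.63, 10.95, 10.61 and 10.20 in the ECP arrays and at 9.32, 10.45, 10.52, 9.72 and 10.50 in the control arrays. From its lowest array, control replicate 1, to its highest, ECP replicate 3, it spanned 3.11-fold, and the other 3 controls lay close together. Des differed by 0.44 (SE 0.24, limma adjusted p = 0.998), or 0.05 (SE 0.15) without control replicates 1 and 4. Synm, which codes for synemin, a partner of desmin, was at 7.89, 8.15, 8.17, 7.95 and 7.27 in the ECP arrays and at 6.66, 7.54, 7.91, 7.13 and 7.92 in the control arrays. ECP replicate 5 and control replicates 1 and 4 were its low arrays, and it differed by 0.45 (SE 0.25), or 0.09 (SE 0.19) without the 2 controls.

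Synpo2, the gene of an actin-bundling protein of dense bodies and Z-discs, was at 9.35, 9.48, 9.76, 9.49 and 9.09 in the ECP arrays and at 8.397, 9.33, 9.32, 8.76 and 9.66 in the control arrays. It differed by 0.34 (SE 0.21), and the difference was near 0 without control replicates 1 and 4 (SE 0.14). Nexn, the gene of the actin-binding protein nexilin, ran from 6.94 to 7.73 in the ECP arrays and from 6.63 to 7.39 in the control arrays. Its difference of 0.44 (SE 0.17, unadjusted p = 0.022, adjusted p = 0.890, limma) was 0.24 (SE 0.16) without the 2 controls. Csrp1, Pgm5 and Flna, which code for a LIM protein, the adherens junction protein aciculin and the actin cross-linker filamin A, differed by 0.30, 0.27 and 0.15, or by 0.06, 0.05 and 0.03 without them.

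A pair of attachment genes went another way. Ldb3, which codes for a PDZ-LIM protein of the Z-disc of striated muscle, was highest in control replicate 1 at 7.41 and lowest in control replicate 4 and ECP replicate 1, both at 6.84. Itga8, the integrin alpha 8 chain of muscle and stromal cells, was highest in ECP replicate 1 at 7.23 and lowest in ECP replicate 5 at 6.39, with control replicate 1 at 6.93. Each differed by -0.08 between the groups (SE 0.12 and 0.16), or by -0.13 (SE 0.12 and 0.19) without control replicates 1 and 4.

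Calcium and ion handling genes were less alike. Pln codes for phospholamban, which restrains the calcium pump of the sarcoplasmic reticulum. It was at 6.98, 7.15, 7.12, 7.21 and 6.73 in the ECP arrays and at 6.14, 6.52, 7.25, 6.46 and 7.19 in the control arrays. Control replicates 1, 2 and 4 lay below every ECP array, and control replicates 3 and 5 near the top of the range, so that the difference of 0.33 (SE 0.20) became 0.05 (SE 0.17) without control replicates 1 and 4. Jph2, the gene of the junctophilin that ties the surface membrane to the calcium store, was at 7.10, 7.12, 7.35, 7.18 and 7.15 in the ECP arrays and at 6.64, 7.07, 7.15, 6.55 and 7.22 in the control arrays. Control replicates 1 and 4 were low and the other 8 arrays close together, with a difference of 0.25 (SE 0.13), or 0.03 (SE 0.08) without those controls.

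Kcnmb1, the regulatory beta subunit of the large-conductance potassium channel that relaxes smooth muscle, was at 9.54, 9.62, 9.56, 9.62 and 9.19 in the ECP arrays and at 8.92, 9.54, 9.75, 9.28 and 9.71 in the control arrays. Its highest values were in control replicates 3 and 5, and the difference of 0.07 (SE 0.15) turned to -0.16 (SE 0.11) without control replicates 1 and 4. Cacna1c, the pore of the L-type calcium channel, spanned 7.80 to 8.25 over all arrays, with control replicate 1 at 7.89 inside the ECP range, and differed by 0.035 (SE 0.09), or by -0.016 (SE 0.11) without the 2 controls. Casq2 (calsequestrin, which binds calcium in the store) and Mrvi1 (a target of cyclic GMP-dependent kinase that restrains calcium release) differed by 0.19 (SE 0.12) and -0.03 (SE 0.12), or by 0.11 (SE 0.13) and -0.13 (SE 0.11) without them. Ryr2, a calcium release channel, was highest in control replicate 1 at 7.19, the array in which 21 of 34 members were lowest. It was lowest in control replicate 5 at 6.70 and differed by 0.07 (SE 0.09), or by 0.14 (SE 0.09) without control replicates 1 and 4.

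Receptors and signalling genes showed little of the pattern, and Chrm3 and Pcp4 lay below the array median on every array. Chrm3, the muscarinic acetylcholine receptor that drives contraction, was at 6.30, 6.39, 6.65, 6.31 and 6.67 in the ECP arrays and at 6.33, 6.30, 6.55, 6.42 and 6.82 in the control arrays. Control replicates 1 and 4 lay among the other values, and the difference was -0.02 (SE 0.11), or -0.09 (SE 0.13) without them. Chrm2, the more abundant muscarinic receptor of gut muscle, ran from 7.28 to 7.46 in the ECP arrays and from 7.19 to 7.54 in the control arrays, with control replicate 1 at 7.31. It differed by -0.01 (SE 0.08), or -0.10 (SE 0.08) without the 2 controls, with a 95% interval of -0.27 to 0.07.

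Hhip, which codes for an inhibitor of hedgehog ligands, was at 7.05, 6.94, 6.95, 7.22 and 7.08 in the ECP arrays and at 6.25, 7.13, 7.46, 7.27 and 7.16 in the control arrays. Control replicate 1 was far below the rest, while control replicate 4 lay above every ECP array. The difference was -0.01 (SE 0.18), or -0.20 (SE 0.10, unadjusted p = 0.062, limma adjusted p = 0.781) without control replicates 1 and 4. Pcp4, a calmodulin regulator found in smooth muscle and neurons, was at 6.72, 6.99, 7.02, 6.995 and 7.03 in the ECP arrays and at 6.71, 6.83, 7.06, 6.64 and 6.92 in the control arrays. ECP replicate 1 was as low as control replicate 1, and the difference was 0.12 (SE 0.09), or 0.015 (SE 0.09) without control replicates 1 and 4.

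**Figure D2:**
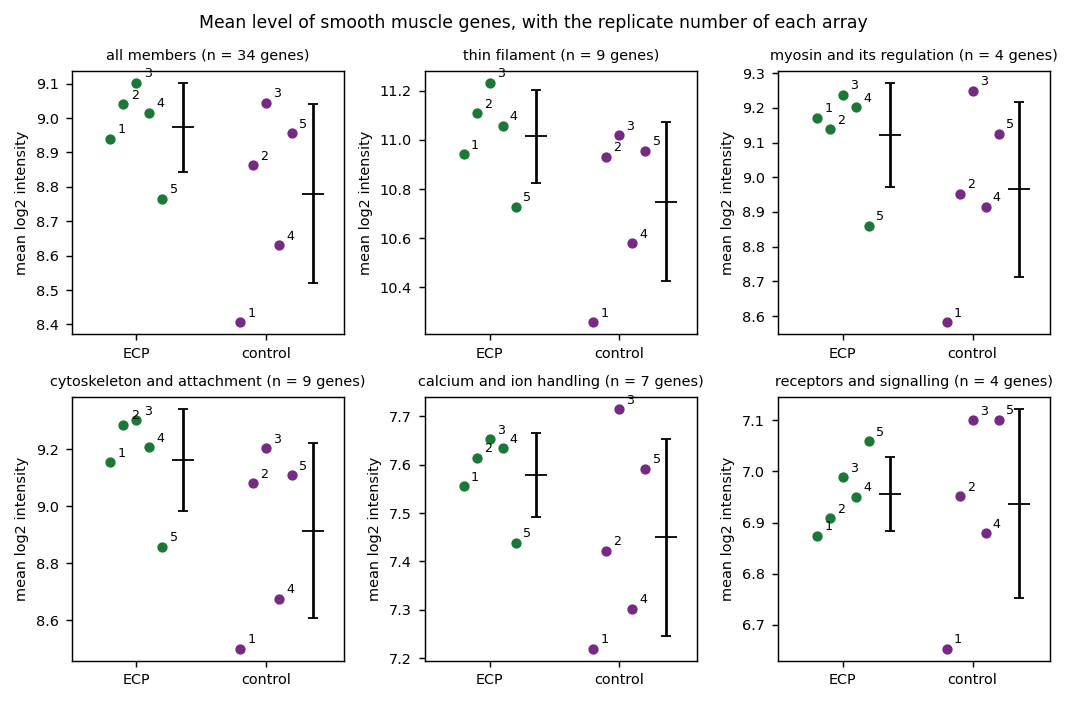
Points are the mean log2 intensity of all 34 members and of 5 role groups on each array, with the replicate number beside each point, and the bar to the right of each group is the mean ± SD of its 5 arrays. Control replicate 1 is lowest in every panel, and in the panel of receptors and signalling genes ECP replicate 5 is the highest ECP array, whereas it is the lowest in the other 5 panels.

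Between the groups, 0 of 34 members passed the threshold with limma, and over all 19505 genes 0% were called. At an unadjusted p under 0.05 there were 4 members, Myocd, Nexn, Tpm2 and Tpm1, all higher in the ECP arrays, where 2.31% of all genes passed in that direction and 5.08% in either. These genes varied together, so they do not count as 4 separate observations. The means were higher in the ECP arrays for 27 members and lower for 7, with a median difference of 0.22, against 53.3% of all genes higher and a median of 0.01. In 0 of 34 members did the groups fail to overlap, against 1.22% of all genes.

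Without control replicates 1 and 4, 21 members were higher and 13 lower, with a median difference of 0.03, against 49.4% of all genes higher. Again 0 members were called, with 0% of all genes called, and Myocd was the 1 member at an unadjusted p under 0.05, where 6.6% of all genes passed, 2.89% with a higher ECP mean. The groups overlapped in every member, against 4.82% of all genes without overlap. The size of the difference shrank for 26 of 34 members, and 7 members turned from higher to lower (Acta2, Cnn1, Smtn, Myl9, Synpo2, Kcnmb1 and Cacna1c), while Ppp1r12b turned the other way. In 18 of 34 members control replicates 1 and 4 were the lowest pair of arrays, so leaving them out had to lower the difference there. Shrinking and turning were not counted over all genes. The largest difference left without these controls was 0.26, that of Myocd.

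**Figure D3:**
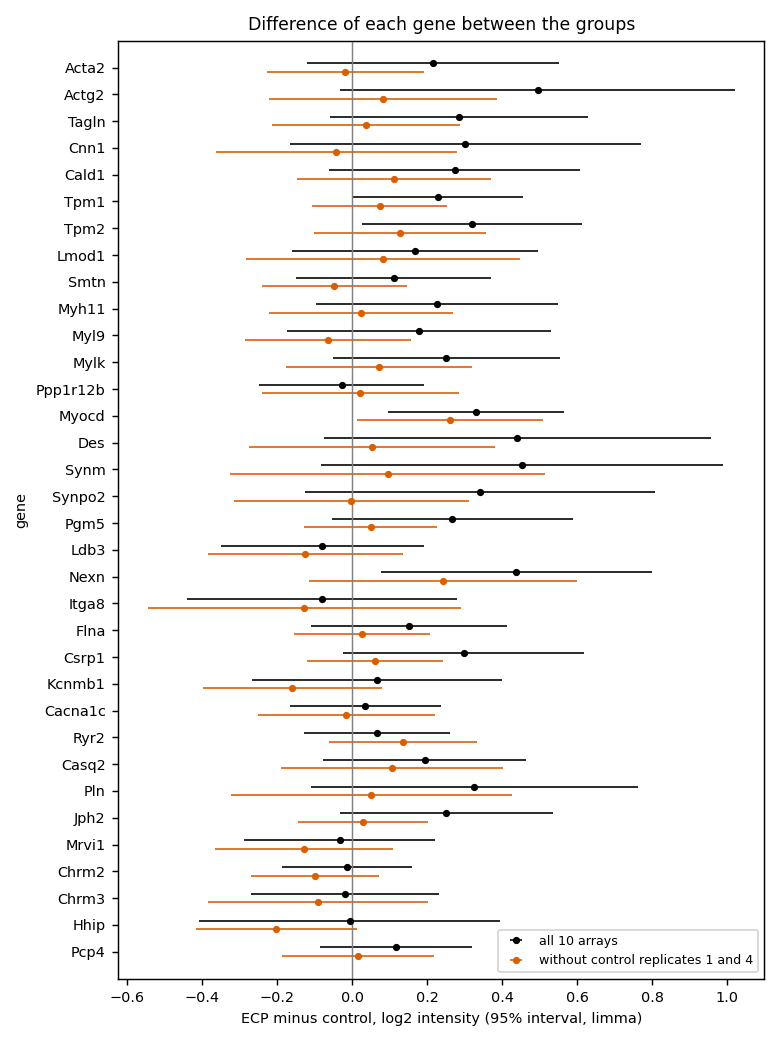
The difference of each gene (rows), ECP minus control in log2 intensity, with its 95% interval from limma, is shown for all 10 arrays in black and without control replicates 1 and 4 in orange. Most black points lie right of 0, from -0.08 to 0.49, and the orange points lie around 0, with Myocd at 0.26 and Hhip at -0.20 at the ends.

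The position of the 2 low controls was shared by more members than by genes at large. Control replicates 1 and 4 were the lowest pair of arrays in 18 of 34 members and in 6.29% of all genes. Control replicate 1 lay below every ECP array in 25 members and in 26.4% of all genes, and control replicate 4 did so in 22 members and in 28.9% of all genes. Within the ECP group, replicate 5 was lowest in 24 of 34 members, against 22.9% of all genes, and replicate 3 was highest in 16 members, against 16.9% of all genes. These counts describe arrays that were looked at because their levels were seen, and have no test.

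Most members were high on the same arrays and low on the same arrays. Over the 561 pairs of members the mean Pearson r across the 10 arrays was 0.503 (mean Spearman rho 0.449), while over all pairs of the 19505 genes it was 0.004. An r above 0.8 was found in 34.8% of member pairs and in 0.665% of all pairs. Without control replicates 1 and 4 the mean r of member pairs was 0.367 and 15.5% of them lay above 0.8, against 0.996% of all pairs. With the group means removed the mean r was 0.49995, close to the value with them. The points share the arrays and their normalisation, and the correlations are given as a description.

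Set against the mean of the other 33 genes, 16 members had an r above 0.9 over the 10 arrays, led by Myh11 (r = 0.986, rho = 0.976), Synm (r = 0.980), Tpm2 (r = 0.976), Myl9 (r = 0.969), Des (r = 0.968) and Csrp1 (r = 0.965). Mylk (0.949), Pln (0.921) and Kcnmb1 (0.910) were also among the 16. The closest pair was Actg2 and Des, with r = 0.992. In the 8 arrays without control replicates 1 and 4, 14 members had an r above 0.8, among them Myh11 at 0.981, Flna at 0.966, Synm at 0.944 and Lmod1 at 0.909. Within role groups the mean r between pairs was 0.856 for thin filament genes and 0.279 for calcium and ion handling genes, or 0.750 and 0.202 in the 8 arrays.

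At the other end, 7 members had an r of 0.5 or lower with the rest, namely Casq2 (0.481), Chrm3 (0.230), Chrm2 (0.166), Itga8 (-0.005), Ppp1r12b (-0.012), Ldb3 (-0.065) and Ryr2 (-0.435). Of these, Casq2, Chrm3 and Ppp1r12b lay below the array median on every array. Chrm2 in the 8 arrays had r = -0.737 and rho = -0.643 with the rest, and r = -0.873 with Myocd, the lowest of the 561 pairs there. Over the 10 arrays its r with Myocd was -0.261. In the 8 arrays Chrm2 spanned only 0.263 log2 units. The r of Hhip was 0.572 over 10 arrays and -0.016 in the 8, and that of Pcp4 was 0.682 and 0.254. Ppp1r12b rose instead, to 0.567 in the 8. Of the genes whose upstream boxes are printed above, Myl9, Synm and Acta2 stood at 0.969, 0.980 and 0.958, and Ldb3 at -0.065. The other members with a box, Jph2, Cacna1c and Pcp4, stood at 0.864, 0.694 and 0.682. Members with no box in their window also lay at both ends, such as Tpm2 at 0.976 and Ryr2 at -0.435. A link between boxes and covariation was not tested.

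**Figure D4:**
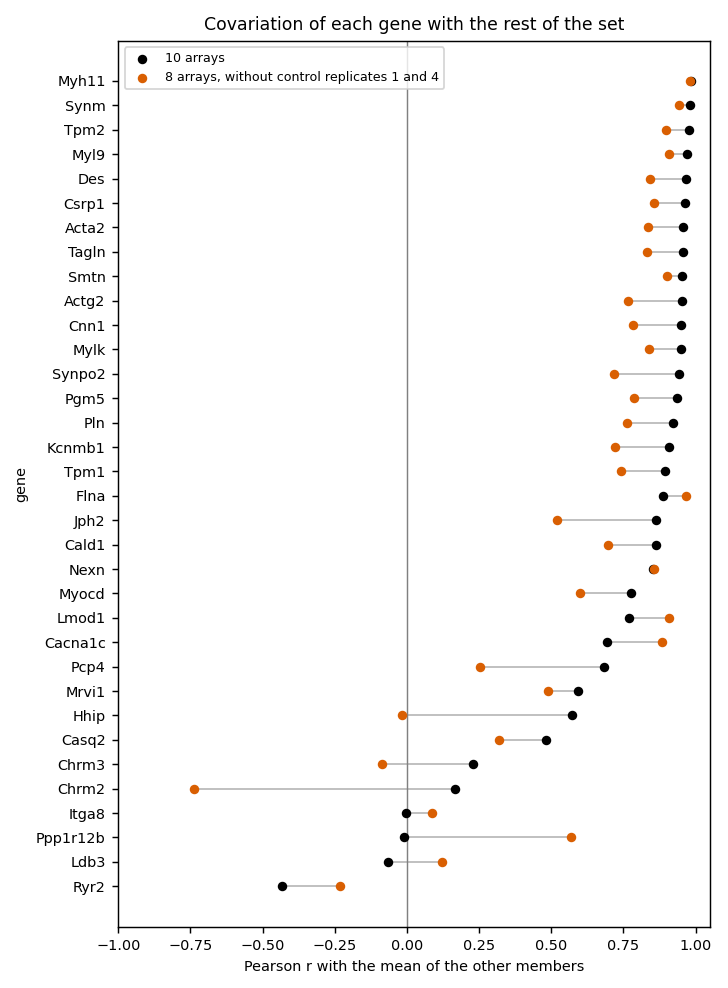
For each gene (rows) the Pearson r with the mean of the other members across arrays is shown for 10 arrays in black and for 8 arrays, without control replicates 1 and 4, in orange. On 10 arrays 16 genes lie above 0.9, among them Pln and Kcnmb1 of the calcium and ion handling group, whereas Ryr2, Ldb3, Ppp1r12b, Itga8, Chrm2 and Chrm3 lie between -0.435 and 0.230.

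Genes with a high r differed in how far they moved. Over the 10 arrays the slope of a gene on the mean of the others, in log2 units per log2 unit, was 2.31 for Synm, 2.25 for Actg2, 2.19 for Des, 1.84 for Synpo2 and 1.82 for Cnn1. It was 1.26 for Acta2 and Myh11, 0.88 for Smtn, 0.86 for Flna and 0.82 for Tpm1. The enteric actin gene Actg2 spanned 3.06-fold between its lowest and highest array and Acta2 1.90-fold. Slopes compare differences within each probe set.

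Outside the set, 449 of 19471 genes (2.31%) had an r above 0.8 with the smooth muscle level over the 10 arrays. The 10 highest were Slc25a32, Pdlim3, Pcmtd1, Adcyap1r1, Popdc2, Vapa, Actr1a, Niban1, Rras and Lpar6, with r from 0.952 to 0.986. Slc25a32, a mitochondrial folate carrier, stood at r = 0.986, or 0.955 in the 8 arrays. Pdlim3, which codes for an actinin-associated LIM protein of muscle, stood at r = 0.986, or 0.928, and was at 9.19 and 9.60 in control replicates 1 and 4 against 9.84 to 10.32 in the other arrays. Popdc2, a popeye domain gene expressed in muscle, ran from 6.497 in control replicate 1 to 8.06. Lpar6, a receptor for lysophosphatidic acid, held least in the 8 arrays, at 0.726.

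Other genes of the contractile pathway were taken from 6 fixed lists with 80 genes, of which 68 were measured. With limma 0 were called, against 0% of all genes, and 4 had an unadjusted p under 0.05, against 5.08% of all genes, a share near that background. The ECP mean was the higher for 49 and the lower for 19, with a median difference of 0.04, against 53.3% of all genes higher. Without control replicates 1 and 4, 28 were higher and 40 lower, the median was -0.02 and 0 were called, against 49.4% of all genes higher and 0% called. Control replicate 1 was the lowest array for 38 of the 68, against 18.4% of all genes.

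In the MRTF-SRF list, Srf, the gene of serum response factor, differed by 0.12 (SE 0.08), or 0.07 without control replicates 1 and 4, and had an r of 0.722 with the smooth muscle level, while Mef2c, another muscle transcription factor gene, differed by -0.20 (SE 0.37), or -0.17 without them. In the nitric oxide and cyclic GMP list, Gucy1b1, a subunit of the nitric oxide receptor, differed by 0.21 (SE 0.15), or -0.04 without those controls, and the phosphodiesterase gene Pde3a by -0.02, or -0.06.

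Of the receptors for excitation, the substance P receptor gene Tacr1 differed by 0.28 (SE 0.13, limma adjusted p = 0.982), or 0.39 (SE 0.14) without control replicates 1 and 4, and its r with the smooth muscle level was -0.114. The ATP-gated channel gene P2rx1 differed by -0.31 (SE 0.16), or -0.12 without those controls. Among calcium stores and channels, the channel subunit gene Cacnb2 differed by 0.17 (SE 0.10), or 0.06 without the 2 controls, and the cation channel gene Trpc6 by -0.27 (SE 0.09, unadjusted p = 0.011, limma adjusted p = 0.755), the latter at -0.24 without them. Among attachment genes, the laminin-binding integrin gene Itga7 differed by 0.22 (SE 0.09, limma adjusted p = 0.939), or 0.17 without the 2 controls, and the sarcoglycan gene Sgca by -0.15 (SE 0.06, limma adjusted p = 0.939), or -0.16.

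Markers of the labelled tissue were present. The 6 smooth muscle markers Acta2, Actg2, Myh11, Tagln, Cnn1 and Des and the 14 epithelial markers lay above the array median on every array. The mean of the 6 was 11.49 ± 0.22 (SD, n = 5) with ECP, 11.17 ± 0.44 (SD, n = 5) without, and 11.47 ± 0.03 (SD, n = 3) in control replicates 2, 3 and 5. Some members, such as Des, Casq2, Ryr2, Pln and Ldb3, are also expressed in striated muscle. Of 11 skeletal muscle markers 8 lay below the array median on every array. The mean level of the 11 ran from 5.57 in control replicate 4 to 5.92 in control replicate 1. Control replicate 4 was the lowest array for 7 of the 11 and control replicate 1 for 1. Of 7 cardiac markers 5 lay below the median on every array, with mean levels of 5.52 to 5.83.

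Other cell types of the colon wall did not all follow the muscle. Of 10 measured enteric neuron markers the mean level was 6.39 and 6.59 in control replicates 1 and 4, 6.501 to 6.81 in the other controls and 6.59 to 6.85 in the ECP arrays. Fibroblast markers, 9 measured, were lowest in control replicate 1 at 9.05 but highest in control replicate 4 at 9.80, against 9.29 to 9.74 elsewhere. Endothelial markers, 8 measured, showed the same order, with 7.26 and 8.001 in these arrays and 7.53 to 7.81 elsewhere. Pericyte markers, 8 measured, lay at 6.91 in control replicate 1 and 7.07 to 7.24 elsewhere. So the mean levels of muscle, enteric neuron, fibroblast, endothelial and pericyte markers were each lowest in control replicate 1. Single genes did not all follow, as it was the lowest array for 6 of 9 fibroblast, 4 of 8 endothelial and 4 of 8 pericyte genes. The mean r between pairs was 0.632, 0.384 and -0.017 in these 3 lists. Control replicate 4 was low in mean muscle level and high in mean fibroblast and endothelial level.

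B cell and epithelial markers separated the same 2 arrays, while the mean level of markers of interstitial cells of Cajal was low in both. B cell markers, 10 measured, stood at 8.59 in control replicate 4, against 6.12 in control replicate 1, 5.96 to 6.07 in the other controls and 5.83 to 7.01 in the ECP arrays. Epithelial markers were at 11.95 in control replicate 4, 12.13 in control replicate 1 and 12.11 to 12.20 in the other 8. Markers of interstitial cells of Cajal, the pacemakers of gut muscle, were at 8.63 and 8.56 in control replicates 1 and 4, 8.85 to 9.14 in the other controls and 8.68 to 8.98 in the ECP arrays, over 5 measured genes. Of the 5, 1 was lowest in control replicate 1 and 2 in control replicate 4. Enteric glia (6 measured), T cell (7), monocyte and neutrophil (9) and adipocyte (8) markers ranged over 5.99 to 6.20, 5.55 to 7.01, 7.42 to 9.05 and 6.41 to 7.44. In these 4 lists control replicate 1 was the lowest array only for T cell markers. The part of any of these lists in the muscle values was not tested.

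**Figure D5:**
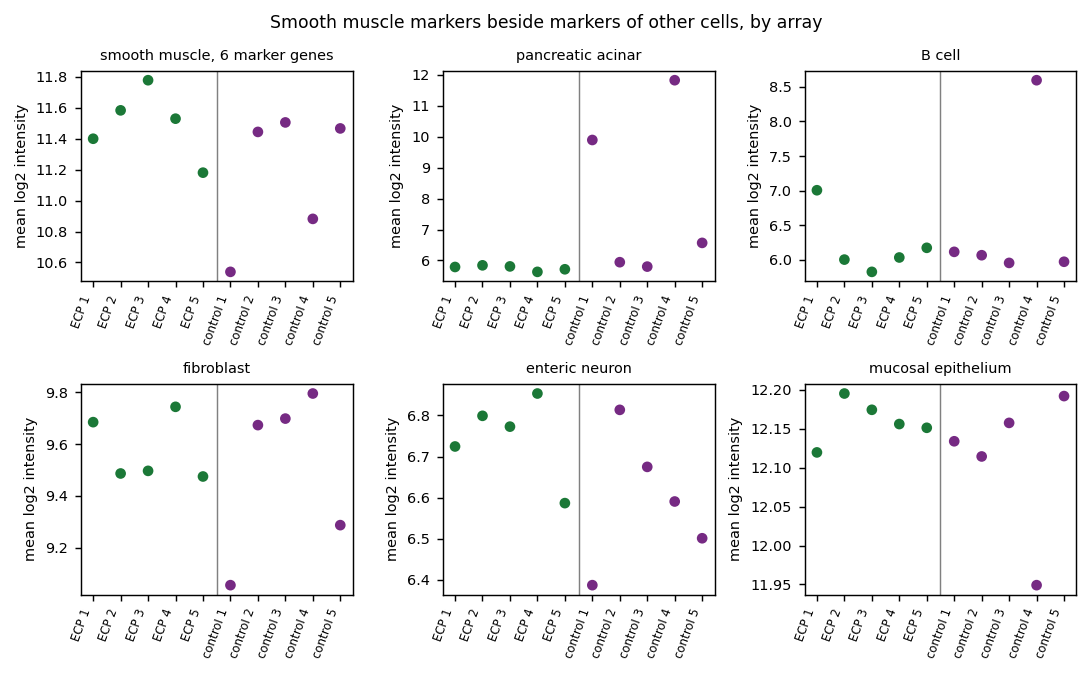
Points give the mean log2 intensity per array of 6 smooth muscle markers and of marker lists of 5 other cell types, each panel on its own axis, with ECP arrays in green left of the line and control arrays in purple. Control replicates 1 and 4 are the low muscle arrays (10.54 and 10.88) and the high acinar arrays (9.89 and 11.83), and they differ from each other in B cell and fibroblast markers.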

How the data were processed

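The authors deposited log2 probe set intensities of 22203 probe sets on 10 arrays, and the submitters' processing notes name oligo and RMA. No version or option was found (not given in the sources used here). Array medians lay between 6.94 and 6.98, and this scaling would hide a shift common to most genes. Probe sets were named through the platform annotation. All 19572 named ones carried 1 symbol, 2631 were unnamed, and the probe set with the highest mean was kept per gene. Pairs of arrays correlated at 0.977 to 0.996 and none were identical. No batch or date is given.

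Groups and replicate numbers came from the titles. The main fit was limma 3.58.1 in R 4.3.3 on all genes, two-sided, with Benjamini-Hochberg adjustment over 19505 genes, a threshold of 0.05 and no covariate, and it was tested on simulated data. Differences are ECP minus control. The number of arrays limits the precision. Members and lists were chosen with earlier results of these data known. Every array value is printed for up to 3 members per role with the largest SD over the arrays. Acta2 and other members are named with ranges, chosen after their values were seen. Other pathway genes are those with the smallest p in each direction per list. Those of 1 list are not reported here. Alternatives changed the normalisation, probe set rule, filter, variance model, weights, pairing and arrays. Correlations within single groups are left out, as 5 arrays are too few. Promoter windows came from RefSeq, GRCm38.p6, with no match for 5 of 35 symbols.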

Additional observations from a re-analysis of the deposited data

Results flagged for a closer look

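In 142 groups of 5 arrays, from the members, their lists and the genes most alike, 18 had 1 array apart from the others by over 0.71 of the group's range, where chance alone gives about 7. These groups share genes and arrays and are not independent. ECP replicate 5 was apart in 7 of them, all low: Lmod1 (7.63, next 8.25), Kcnmb1 (9.19, next 9.54), the mean of the myosin genes (8.86, next 9.14), the mean of other attachment and cytoskeleton genes (9.01, next 9.20), Popdc2 (7.47, next 8.01), Actr1a (10.66, next 10.74) and Niban1 (9.97, next 10.18). Control replicate 1 was apart in 6, all low: Cald1 (9.27, next 9.88), Flna (10.85, next 11.37), Hhip (6.25, next 7.13), the MRTF-SRF list (7.82, next 8.24), the calcium stores and channels list (7.40, next 7.67) and pericyte markers (6.91, next 7.07).

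B cell markers (8.59, next 6.12) and T cell markers (7.01, next 5.83) were high in control replicate 4. Adipocyte markers were low in ECP replicate 2 (6.69, next 7.28) and in control replicate 5 (6.41, next 6.98). Pcp4 was low in ECP replicate 1 (6.72, next 6.99).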

How the results depend on the processing

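Under all alternatives run, 0 members were called, with a smallest adjusted p of 0.355 (limma, without control replicate 3). Over all genes the 0 called became 1 with the lowest quartile left out, 7 with genes below the median left out, 1 with trend and robust options, and 0 to 1 when single arrays were left out. The mean pair correlation of 0.503 moved to 0.367 without control replicates 1 and 4, and ran from 0.450 to 0.522 when single arrays were left out. The smooth muscle level difference was lowest, 0.10, without control replicate 1 and highest, 0.26, without control replicate 3. It was 0.21 as a median of members and 0.33 over the 6 markers.

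Of 34 member differences, 21 kept their sign under every alternative run. Without control replicates 1 and 4, signs turned for Acta2 (-0.018), Cnn1 (-0.042), Smtn (-0.048), Myl9 (-0.065), Ppp1r12b (0.022), Synpo2 (-0.0023), Kcnmb1 (-0.16) and Cacna1c (-0.016). Array weights turned Ppp1r12b (0.0064) and Kcnmb1 (-0.031). Leaving out single arrays gave ranges across 0 for Cacna1c (-0.018 to 0.10), Chrm2 (-0.062 to 0.027), Chrm3 (-0.071 to 0.064), Hhip (-0.21 to 0.093), Kcnmb1 (-0.065 to 0.15), Mrvi1 (-0.13 to 0.034), Ppp1r12b (-0.091 to 0.026) and Ryr2 (-3.4e-05 to 0.12). The cause was not tested. With the replicate block 0 genes and 0 members were called and the level difference was 0.19. Same-numbered arrays deviated with correlations of -0.24 to 0.08, and no ECP array correlated best with the control of its number. The labels give no pairing, and these few correlations cannot decide whether same-numbered samples belong together.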
